A study of Homo sapiens with 18 samples.

Results

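The genes described here are 41 neighbours on the long arm of human chromosome 15, from RAB27A to USP3, read in H295R cells with and without an introduced glucocorticoid receptor. They were chosen because the stretch from TEX9 to VPS13C had higher RNA levels in the cells given the receptor, and the question was where along the chromosome that difference starts and ends. Of the 41 genes, 39 had a probe set of their own, among 18417 genes measured and 576 measured on chromosome 15. LIPC is not analysed here, and CCPG1, which shares its probe set with a read-through transcript, is not counted among the members below. Of the 39, 6 lie before TEX9, 23 from TEX9 to VPS13C and 10 after VPS13C, in the RefSeq gene order of GRCh38.p14. That order was used without coordinates, since the build behind the probe annotation is not given in the sources used here.

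H295R is an established steroid-producing line derived from a human tumour of the adrenal cortex. Per the labels, all cells held a stable pcDNA4 vector that is not inducible, and all were grown with Zeocin. The vector was empty in control cells and encoded GRα, the hormone-binding form of the glucocorticoid receptor (gene NR3C1), in GRα cells. After serum starvation each line received ethanol vehicle, 100 nM dexamethasone (a synthetic glucocorticoid agonist) or 100 nM RU486 (mifepristone, a receptor antagonist or partial agonist) for 6 h. The control line has 3 arrays for each treatment, and the GRα line has 3 with vehicle, 3 with dexamethasone and 2 with RU486. Each arm is 1 stable line, so an effect of GRα and any other difference between these lines cannot be told apart. Replicates are named biological in the labels, but separate cultures are not stated, so p-values reflect only how these samples spread, which may be technical. In whole-culture RNA, a higher level in each cell and more cells that hold the RNA cannot be told apart either.

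Genes that lie next to each other on a chromosome need not share a function, and these do not form a pathway. The region holds transcription factors (TCF12, RORA, RFX7), parts of the basal transcription machinery (GTF2A2, POLR2M, ICE2), the sheddase ADAM10, the mitotic cyclin CCNB2, ubiquitin ligases and deubiquitinases, motor and junction proteins, and several genes known for narrow tissue patterns, such as FOXB1, AQP9 and ALDH1A2. RNA levels alone are measured here, not the DNA or the chromatin of the region.

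The labels were first checked on NR3C1. Its log2 level lay between 7.23 and 7.46 over the 9 control arrays and between 7.90 and 8.11 over the 8 GRα arrays, and in vehicle it was 1.5-fold higher in GRα cells (log2 difference 0.59 ± 0.07 SE, adjusted p = 1.37e-06, limma). ZBTB16, a glucocorticoid-induced transcriptional repressor, rose 5.63-fold with dexamethasone in GRα cells (adjusted p = 1.17e-11, limma) and 2.67-fold in control cells (adjusted p = 5.88e-08, limma), and did not pass the test with RU486 in either line. The adrenocortical marker list averaged 7.83 to 8.0 over the control arrays and 7.49 to 7.69 over the GRα arrays. Of its 12 markers STAR, HSD3B2 and SCARB1 were lower on every GRα array, as were 12.4% of all genes. The other markers of this list overlapped between the lines, with mean differences from -0.27 (FDX1) to 0.29 (CYP17A1). The chromaffin list averaged 5.57 to 5.66 and 6.06 to 6.26. Of its 7 measured genes CHGB (6.18 against 9.16) and CHGA (5.44 against 5.99) were higher on every GRα array, while the catecholamine enzymes TH (6.28 against 6.30), DBH and PNMT overlapped between the lines. Fibroblast markers separated in 1 of 8 genes (COL1A1, higher), and endothelial, leukocyte and epithelial markers in none; the part of these markers in the results below was not tested. GRα vehicle replicate B stands apart from the other arrays, with an array weight of 0.194 in limma against 0.654 for the next lowest.

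Promoter sequences are shown for the genes on which the account turns: RAB27A, the first member in order, CGNL1, the member with the largest difference between the lines, ZNF280D, the only member lower in GRα cells, and MYO1E, the only member called in a treatment comparison. Each is the 250 bases before the RefSeq start in GRCh38.p14, written 5′ to 3′ on the gene's strand, and capitals mark the GC box (GGGCGG on either strand), a short motif bound by Sp1-type factors. RAB27A lies at chr15:55319124-55319373 on the minus strand, CGNL1 at chr15:57376255-57376504 on the plus strand, ZNF280D at chr15:56733510-56733759 on the minus strand and MYO1E at chr15:59372872-59373121 on the minus strand.
RAB27A: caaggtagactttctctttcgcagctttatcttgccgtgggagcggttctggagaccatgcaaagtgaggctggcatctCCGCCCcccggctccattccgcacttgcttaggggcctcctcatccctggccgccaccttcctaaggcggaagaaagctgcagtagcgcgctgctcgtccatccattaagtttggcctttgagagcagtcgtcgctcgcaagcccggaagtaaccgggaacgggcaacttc
CGNL1: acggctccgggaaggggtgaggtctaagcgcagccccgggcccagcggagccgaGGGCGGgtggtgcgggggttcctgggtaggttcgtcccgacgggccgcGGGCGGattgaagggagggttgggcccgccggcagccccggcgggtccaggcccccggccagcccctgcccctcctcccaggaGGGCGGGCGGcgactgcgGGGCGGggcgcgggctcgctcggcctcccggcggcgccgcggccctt
ZNF280D: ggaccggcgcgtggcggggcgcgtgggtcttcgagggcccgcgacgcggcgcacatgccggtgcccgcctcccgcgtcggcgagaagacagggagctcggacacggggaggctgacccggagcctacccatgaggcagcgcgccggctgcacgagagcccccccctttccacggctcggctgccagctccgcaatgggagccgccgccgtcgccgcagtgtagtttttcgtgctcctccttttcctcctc
MYO1E: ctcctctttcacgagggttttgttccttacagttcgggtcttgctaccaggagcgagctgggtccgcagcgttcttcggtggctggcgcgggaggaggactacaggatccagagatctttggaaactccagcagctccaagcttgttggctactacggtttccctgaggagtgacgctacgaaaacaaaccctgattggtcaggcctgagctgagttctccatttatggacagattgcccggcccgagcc

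The CGNL1 promoter holds 5 GC boxes and 33 CpG dinucleotides, and the ZNF280D promoter holds 34 CpG dinucleotides but no GC box. RAB27A has 1 GC box, and its window shares 98 bases with that of PIGB, which is read from the opposite strand. MYO1E has no GC box and 1 CCAAT box. A promoter was found for 38 of the 39 members; APH1B had none in the RefSeq table. GC boxes occurred in 23 of the 38, or 60.5%, against 42.3% of all 27305 promoters of that length. The share was 66.7% (18 of 27) among members higher in GRα cells and 50.0% (5 of 10) among members whose arrays overlapped between the lines. CCAAT boxes were in 31.6% of members and 33% of all promoters, and TATAAA was in 7.89% against 11.1%. The glucocorticoid response element, AGAACA and TGTTCT with any 3 bases between them, was in no member window and in 1 of all promoters. Its right arm alone, counted on both strands and also inside the full element, was in 13.2% of members and 12.4% of all promoters. These are matches of letters and carry no test.

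In the values that chose them, 28 of the 39 members had all 8 GRα arrays above all 9 control arrays, 1 had all below and 10 overlapped. Over all genes, 10% lay wholly above and 12.4% wholly below. A mean difference of at least 0.5 log2 was reached by 27 members and by 5.59% of all genes. Since this contrast chose the members, their share is a description and has no test. The difference between the lines, taken as the mean over the 3 treatments, had a median of 0.90 log2 over the members, with quartiles of 0.40 and 1.01, against a median of -0.00 over all genes. The median was 0.77 in vehicle, 0.92 in dexamethasone and 0.93 in RU486.

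**Figure D1:**
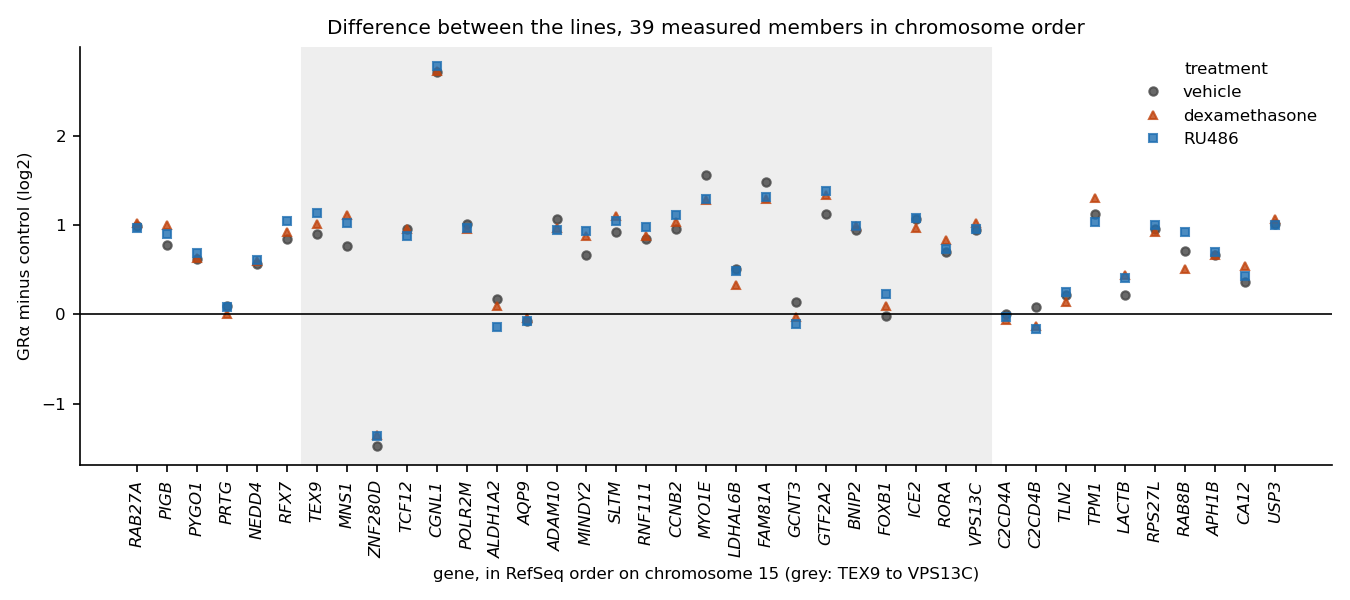
GRα minus control cells (log2) in each of the 3 treatments (circles vehicle, triangles dexamethasone, squares RU486) for the 39 measured members in RefSeq order, with TEX9 to VPS13C shaded. The medians are 0.77 before the shading, 0.98 within it and 0.56 after it, while CGNL1 (mean 2.74) and ZNF280D (mean -1.39) stand apart and several dim members lie near 0.

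The size of the difference was nearly the same in most members with a clear signal. "Bright" is used here for genes whose mean over the 17 arrays is at or above 6.85 log2, the level of the median gene, and "dim" for the rest. That mean includes the GRα arrays, so some genes are bright only through them. Among the members these are PYGO1 (control mean 6.57), CGNL1 (6.68), RAB8B (6.60) and LACTB (6.75). Examples outside the members are ANXA2 (4.99) and CSNK1G1 (6.38). Counts and medians of bright genes below therefore lean towards genes higher in GRα cells. Among the 19 bright members the median difference was 0.98 with quartiles of 0.91 and 1.02. Of the 19, 13 lay between 0.8 and 1.2, and 18 were higher on every GRα array. PYGO1, CGNL1 and RAB8B, among those 18, are bright only through the GRα arrays. Among bright genes of the whole array 14.3% were higher on every GRα array. Among the 20 dim members the median was 0.44, and 10 were higher on every GRα array. Over all dim genes the median was 0.02, and 5.73% were higher on every GRα array. Of the 10 members that overlapped between the lines 9 were dim, with control means from 4.56 to 6.75 and differences from -0.07 to 0.44. Over the 39 members the control level and the difference had a Spearman correlation of 0.43 and a Pearson correlation of 0.31, a description over probe sets of the same arrays, and the part of signal level in the small differences was not tested.

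Array by array, the bright members separated the cell lines by far more than the ligands. The genes were chosen through their difference between the lines, so this gap is a description and has no test. Each array was summarised as the median, over the 19 bright members, of its difference from the mean of the control vehicle arrays. Control arrays lay between -0.11 and 0.06. GRα arrays were at 0.92, 0.95 and 1.01 with vehicle, 0.91, 0.94 and 0.90 with dexamethasone, and 0.99 and 0.97 with RU486. Every GRα array was above every control array by a wide margin. Within the GRα line the vehicle arrays overlapped those of each ligand, while both RU486 arrays lay slightly above the 3 dexamethasone arrays. Bright genes of other chromosomes on the same GRα arrays lay between -0.078 and -0.046.

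**Figure D2:**
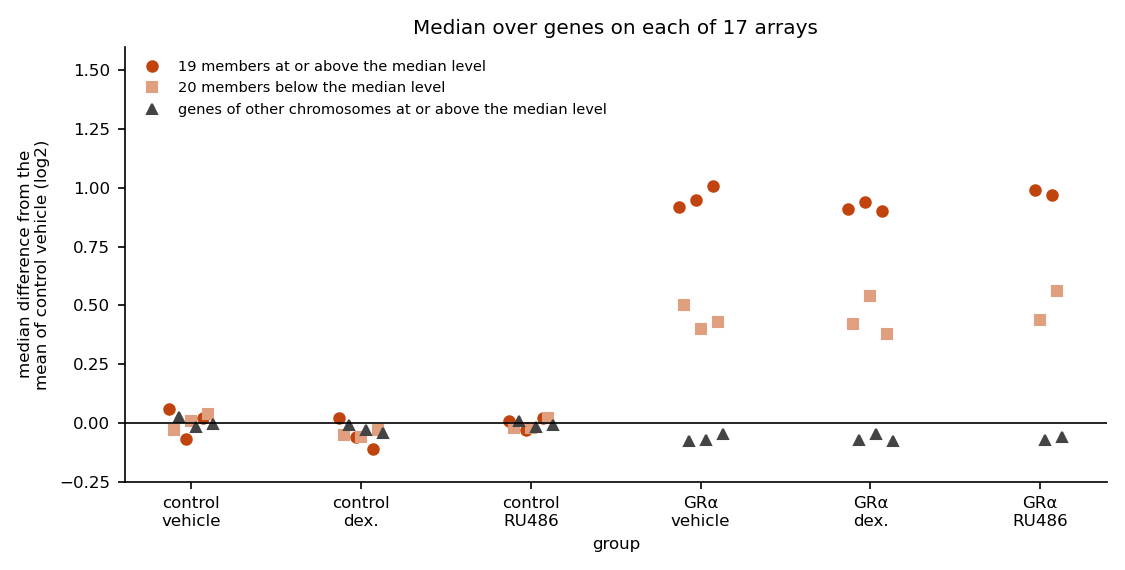
Median log2 difference from the control vehicle mean on each of the 17 arrays, for bright members, dim members and bright genes of other chromosomes, by group. GRα arrays sit between 0.90 and 1.01 for the bright members and between 0.38 and 0.56 for the dim members, while the other chromosomes stay near 0.

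The members before TEX9 already carried the difference. RAB27A, a small GTPase of granule exocytosis, had log2 levels of 7.07 to 7.28 (median 7.16) on control arrays and 8.02 to 8.27 (median 8.20) on GRα arrays, a 1.99-fold difference. RFX7, a winged helix transcription factor, ran from 7.70 to 7.96 (median 7.87) and from 8.39 to 8.98 (median 8.80), a 1.92-fold difference. In both genes the lowest GRα array was well above the highest control array. PIGB, a mannosyltransferase of GPI anchor synthesis, was 1.85-fold higher, PYGO1, a Wnt coactivator, 1.57-fold, and NEDD4, a HECT ubiquitin ligase, 1.51-fold. PRTG, a cell surface protein of the immunoglobulin superfamily, overlapped, at 4.30 to 4.71 (median 4.58) in control and 4.53 to 4.78 (median 4.59) in GRα cells. The median of these 6 members was 0.77. Without GRα vehicle replicate B it was 0.80, and the medians from TEX9 to VPS13C and after VPS13C were 0.98 and 0.56, as with all arrays.

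From TEX9 to VPS13C, 17 of 23 members were higher on every GRα array, 1 was lower and 5 overlapped, with a median of 0.98. All 11 bright members of this stretch were higher. Taken by role, the 10 transcription genes of the whole set had 8 higher, 1 lower and 1 overlapping, with a median of 0.93. TCF12, an E protein of the basic helix-loop-helix family, lay at 8.65, 8.57 and 8.58 in control vehicle, 8.62, 8.56 and 8.49 with dexamethasone and 8.65, 8.53 and 8.60 with RU486. In GRα cells it lay at 9.44, 9.66 and 9.55, at 9.51, 9.59 and 9.44, and at 9.50 and 9.44. Its lines did not overlap and its treatments did, with a 1.90-fold difference between the lines (log2 0.93 ± 0.04 SE). RORA, an orphan nuclear receptor, ran from 5.91 to 6.09 (median 5.96) in control and from 6.64 to 6.87 (median 6.73) in GRα cells, a 1.69-fold difference in a dim probe set.

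The basal transcription genes stood close to the rest. POLR2M, the Gdown1 protein that associates with RNA polymerase II, was 1.97-fold higher in GRα cells. ICE2, a subunit of the little elongation complex of snRNA genes, was 2.06-fold higher, and SLTM, a nuclear nucleic acid binding protein, 2.03-fold. GTF2A2, the small subunit of TFIIA, showed more, with log2 levels of 7.22 to 7.58 (median 7.5) on control arrays and 8.52 to 8.94 (median 8.73) on GRα arrays, a 2.43-fold difference. FOXB1, a forkhead factor known from the developing brain, overlapped at 5.78 to 6.29 and 5.90 to 6.22.

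ZNF280D, a zinc finger protein gene, was the exception in direction. Its log2 level was 6.61, 6.49 and 6.48 in control vehicle, 6.62, 6.30 and 6.34 with dexamethasone and 6.57, 6.52 and 6.56 with RU486. In GRα cells it was 5.13, 4.94 and 5.09 with vehicle, 5.00, 5.15 and 5.08 with dexamethasone, and 5.21 and 5.17 with RU486. Every GRα array was more than 1 log2 below every control array, and the level in GRα cells was 0.38 of that in control cells. The neighbours of ZNF280D in order on either side, MNS1 (1.96-fold) and TCF12, were higher in GRα cells.

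CGNL1, a protein of tight and adherens junctions, had the largest difference of the members. It lay at 6.79, 6.78 and 6.83 in control vehicle, 6.56, 6.39 and 6.55 with dexamethasone and 6.71, 6.65 and 6.85 with RU486. In GRα cells it lay at 9.63, 9.26 and 9.64, at 9.24, 9.28 and 9.14, and at 9.59 and 9.45. That is a 6.68-fold difference between the lines (log2 2.74 ± 0.06 SE), between TCF12 at 1.90-fold and POLR2M at 1.97-fold, with ZNF280D, lower in GRα cells, on the far side of TCF12. The next largest were MYO1E, a class I myosin, at 2.59-fold, and FAM81A, a coiled coil protein, at 2.58-fold, both in dim probe sets. Cytoskeletal and junction genes as a role had 3 of 4 members higher, with a median of 1.27, and the fourth, the integrin linker TLN2, overlapped (4.85 to 5.02 against 4.97 to 5.30).

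**Figure D3:**
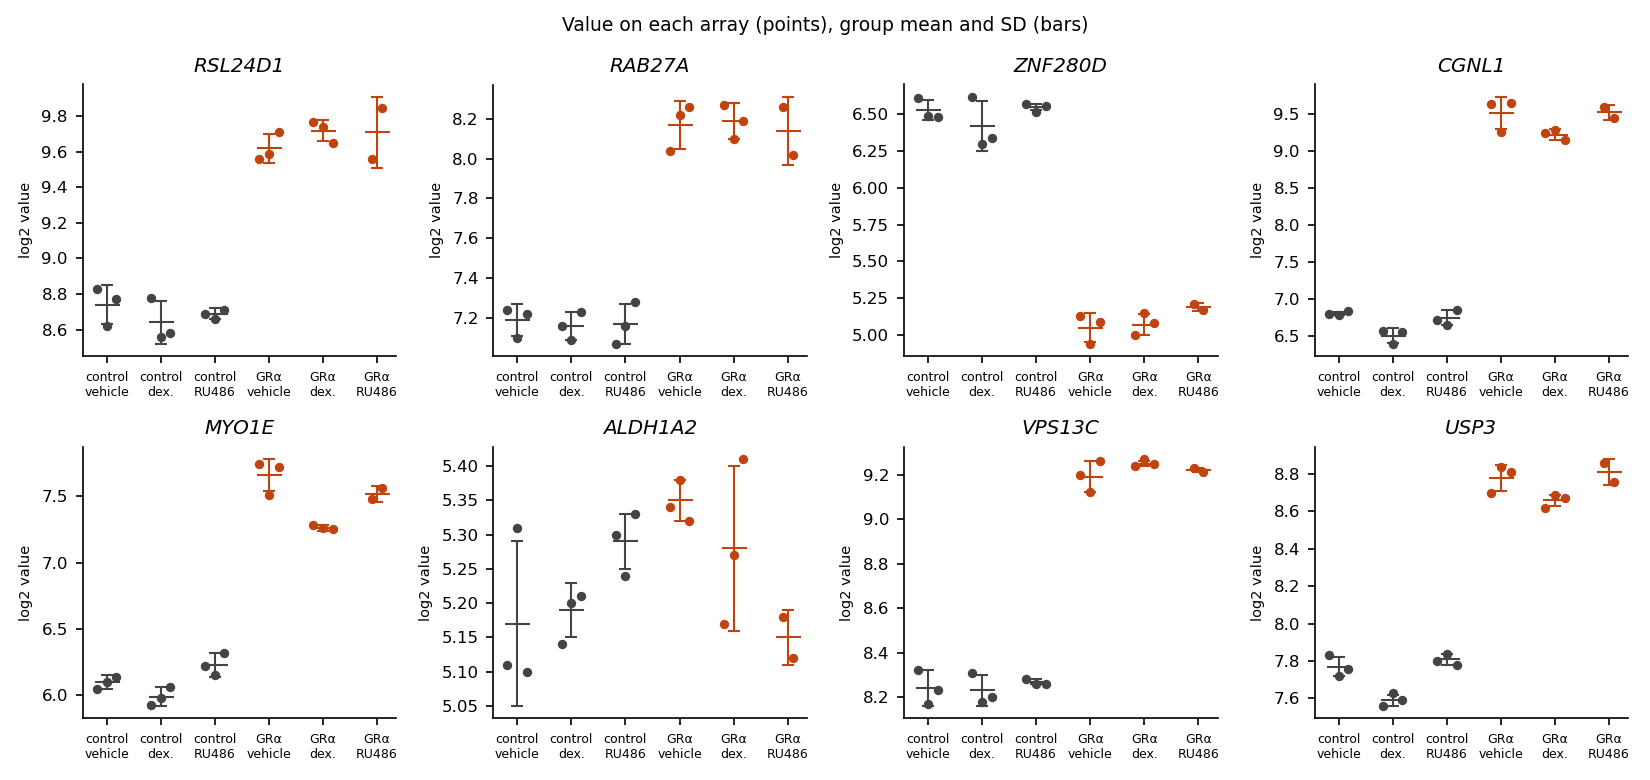
Log2 level of selected members, and of RSL24D1, the last measured gene before them, on each of the 17 arrays by group. Bars are at the group mean and SD, and the vertical axis differs between panels. CGNL1 lies between 6.39 and 6.85 in control and between 9.14 and 9.64 in GRα arrays, ZNF280D shows the opposite order, and ALDH1A2 overlaps between the lines.

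The other roles within and around the stretch had smaller spreads. ADAM10, the membrane metalloprotease that acts as an alpha secretase, ran from 9.51 to 9.69 (median 9.65) in control and from 10.50 to 10.77 (median 10.63) in GRα cells, a 1.99-fold difference. CCNB2, the mitotic cyclin B2, ran from 9.52 to 9.66 (median 9.59) and from 10.51 to 10.74 (median 10.61), a 2.05-fold difference. In both, the lines were apart on every array by more than the whole range within a line. All 4 ubiquitin genes were higher, with a median of 0.86: RNF111, the ligase Arkadia of TGF-beta signalling, 1.86-fold, MINDY2, a deubiquitinase, 1.78-fold, and USP3, a deubiquitinase of histones, 2.04-fold, besides NEDD4. The 3 trafficking genes were higher, including VPS13C, a lipid transfer protein at organelle contacts, at 1.97-fold, and RAB8B, a small GTPase, at 1.64-fold. Both cilium-related genes were higher, TEX9 2.02-fold and MNS1, an axonemal protein, 1.96-fold, although both are dim. BNIP2, a BCL2-binding protein, was 1.97-fold higher.

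The metabolic genes mostly overlapped, 5 of 7, with a median of 0.35. ALDH1A2, which makes retinoic acid from retinaldehyde, lay at 5.10 to 5.33 in control and 5.12 to 5.41 in GRα cells. AQP9, a water and glycerol channel, lay at 4.46 to 4.81 and 4.35 to 4.84, and GCNT3, a mucin glycosyltransferase, at 5.74 to 6.04 and 5.70 to 6.17. All 3 are dim, and none separated the lines. LDHAL6B, a lactate dehydrogenase-like gene, overlapped with a difference of 0.44. CA12, a membrane carbonic anhydrase after VPS13C, was 1.36-fold higher and was the closest to overlap among the higher members, its highest control array being 5.83 and its lowest GRα array 5.87.

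After VPS13C the difference continued. The 10 members there had a median of 0.56, with 6 higher on every GRα array and 4 overlapping, and the 5 bright ones had a median of 0.71. RPS27L, a ribosomal protein-like p53 target, ran from 7.12 to 7.34 (median 7.25) in control and from 8.07 to 8.36 (median 8.21) in GRα cells, a 1.95-fold difference. USP3, the last member, ran from 7.56 to 7.84 (median 7.76) and from 8.62 to 8.86 (median 8.73). Both lay as far apart between the lines as the bright members before VPS13C. TPM1, tropomyosin 1, was 2.23-fold higher in a dim probe set, and APH1B, a gamma secretase subunit, 1.6-fold. LACTB, a mitochondrial serine protease-like protein, was the only bright member that overlapped, by 1 pair of arrays close together, at 6.65 to 6.85 in control and 6.84 to 7.35 in GRα cells. C2CD4A and C2CD4B, nuclear C2 domain proteins, overlapped with differences of -0.03 and -0.07.

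The measured genes that lie between members behaved in both ways. ANXA2, the calcium-dependent phospholipid binding protein annexin A2, between FOXB1 and ICE2, had a far larger difference than any member, from 4.69 to 5.19 (median 4.96) in control and from 9.45 to 9.65 (median 9.57) in GRα cells, or 23.5-fold. The pseudogene HSP90AB4P was 1.45-fold higher, and GOLGA2P11 and MIR190A overlapped.

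The step up lay before the first member. RSL24D1, a ribosome biogenesis factor and the last measured gene before RAB27A, ran from 8.56 to 8.83 (median 8.69) in control and from 9.56 to 9.85 (median 9.68) in GRα cells, 1.99-fold. Its bright neighbour on the other side, ONECUT1, ran from 6.78 to 7.02 and from 6.92 to 7.30 and overlapped. In order, 2 dim genes lie between them: WDR72 was 1.49-fold higher on every GRα array, and UNC13C overlapped. Of the 10 measured genes before RAB27A, 3 were higher on every GRα array, RSL24D1, WDR72 and ARPP19 (1.29-fold), and the median was 0.22.

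Medians of the 10 bright genes on each side of every boundary on chromosome 15 stepped up most around the same place. The largest step up among 273 boundaries was between ONECUT1 and RSL24D1, from 0.15 to 0.99, or 0.83. The boundaries beside it were close, at 0.82 between ARPP19 and ONECUT1 and 0.79 between RSL24D1 and RAB27A. Neighbouring windows share most of their genes, so these medians do not fix the place to 1 boundary. At the start of the stretch used to choose the genes, between RFX7 and TCF12 among bright genes, the step was from 0.32 to 1.01, which ranked 7th. With 15 bright genes a side the largest step up was again between ONECUT1 and RSL24D1, while 5 a side placed it between RPLP1 and UACA, from 0.68 to 2.12. Steps were ranked on the same values that chose the genes, among bright genes picked partly on the GRα arrays, and carry no test.

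At VPS13C there was no comparable end. The median of 10 bright genes went from 1.01 before the boundary between VPS13C and LACTB to 0.85 after it, and from 0.98 to 0.91 between USP3 and HERC1, which ranked 67th and 102nd among the steps down. Of the 10 measured genes after USP3, 7 were higher on every GRα array, and those were all 7 of the bright ones. One of them, CSNK1G1, is bright only through its GRα arrays (control mean 6.38). HERC1, a giant HECT domain ligase, was 2.23-fold higher, the sorting nexin SNX1 2.26-fold, TRIP4 2.16-fold, CSNK1G1 2.01-fold, PCLAF 1.76-fold, the cyclophilin PPIB 1.68-fold and CIAO2A 1.42-fold. Among bright genes the largest step down lay far beyond the members, between AKAP13 and MRPL46, from 1.03 to 0.29, also with 15 genes a side. With 5 a side it lay between THSD4 and MYO9A. Close by, with 10 bright genes a side, the median fell from 0.87 to 0.45 between MYO9A and SENP8, which ranked 11th. Over all genes, dim ones included, with 10 a side the largest step down lay inside the stretch, between BNIP2 and FOXB1 (-0.85). The place of the end thus depends on which genes are counted and on the window.

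**Figure D4:**
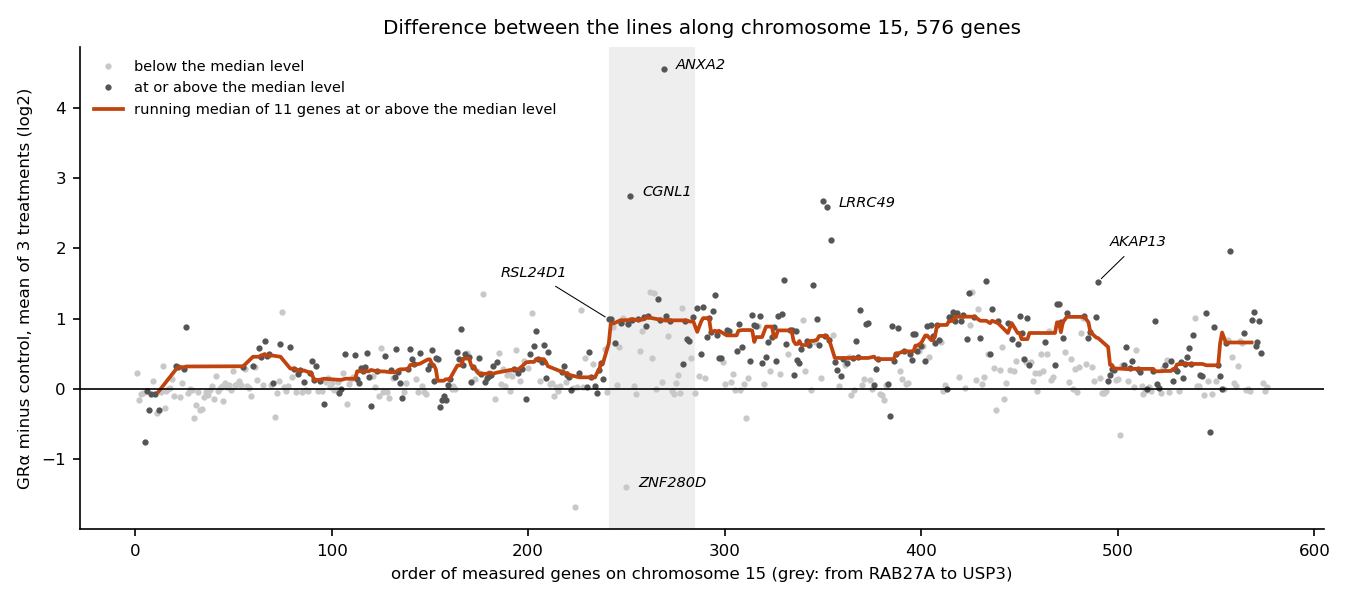
Difference between GRα and control cells (log2) for the 576 measured genes of chromosome 15 in RefSeq order, bright genes in dark grey and dim genes in light grey, with RAB27A to USP3 shaded and a running median of 11 bright genes as a line. The medians of 10 bright genes step up from 0.15 to 0.99 just before the shading and down from 1.03 to 0.29 between AKAP13 and MRPL46, well after them.

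Counted gene by gene, all 16 bright genes from RSL24D1 to VPS13C were higher on every GRα array, members and others together, and so were 9 of 16 dim genes. From RSL24D1 to USP3 it was 20 of 21 bright genes, LACTB being the exception, and 11 of 23 dim genes. Over the whole array it was 14.3% of bright genes and 5.73% of dim genes. From FBXL22, the first gene after USP3, to AKAP13 it was 110 of 118 bright genes, with a median of 0.77, and from MRPL46 to the end of the order 28 of 44, with a median of 0.35. Between FBXL22 and AKAP13 the level was uneven. The median was 0.45 over the 20 bright genes from PKM to ULK3 and 0.84 over the next 20, from SCAMP2 to RCN2. Before RSL24D1, 51 of 109 bright genes were higher on every GRα array, with a median of 0.28. The level outside the region was thus not 0 on this chromosome, against -0.05 for bright genes of other chromosomes, of which 12.4% were higher on every GRα array. Over chromosome 15 as a whole the bright median was 0.49, the highest of the 22 autosomes, with chromosome 9 next at 0.14 and chromosome 13 lowest at -0.65.

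Relatives of the members on other chromosomes lay mostly near 0. Of 50 listed paralogs 43 were measured, of which 6 were higher on every GRα array (TCF4, RORB, AQP3, ATCAY, ZNF280B and RFX5), 4 were lower (ADAM17, ALDH1A1, LPL and LDHA) and 33 overlapped. Among all 18417 genes 1843 were higher on every GRα array and 2276 were lower, so these paralog counts lay near the shares of all genes. The median difference of the paralogs was 0.04, and 0.05 among the 28 bright ones. ADAM17, the sheddase closest to ADAM10, went from 9.02 in control to 8.78 in GRα cells. CGN, the relative of CGNL1, had a difference of -0.06 in a dim probe set. The only paralog with a difference of at least 1 log2 was ZNF280B, which was at 7.5 ± 0.06 in control cells (SD, n = 9) and 8.64 ± 0.10 in GRα cells (SD, n = 8), opposite in direction to ZNF280D.

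The treatment comparisons were not used to choose the genes. However, they share vehicle, dexamethasone and RU486 arrays with the line difference, and they share arrays with each other. Dexamethasone in GRα cells called 1 of the 39 members, MYO1E, at an adjusted p under 0.05 (limma), while 2.02% of all genes were called, 250 up and 122 down. At an unadjusted p under 0.05 there were 7 members, or 17.9%, against 15.3% of all genes. The median change was -0.027 over the members and -0.013 over all genes. A share near that of all genes is not a result about the members.

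MYO1E, which works in clathrin-mediated endocytosis and in kidney podocytes, fell with dexamethasone in GRα cells, in a dim probe set. Its log2 level was 7.74, 7.51 and 7.72 with vehicle, 7.28, 7.26 and 7.25 with dexamethasone, and 7.48 and 7.56 with RU486. In control cells it was 6.05, 6.10 and 6.14 with vehicle, 5.93, 5.98 and 6.06 with dexamethasone, and 6.22, 6.15 and 6.32 with RU486. In GRα cells all 3 dexamethasone arrays lay below all vehicle and RU486 arrays, while in control cells dexamethasone and vehicle overlapped at 6.06 and 6.05. The change in GRα cells was -0.39 ± 0.07 SE, or 1.31-fold lower (adjusted p = 0.00431, limma), and in control cells -0.11 ± 0.07 SE (adjusted p = 1.0, limma). The difference between these changes, -0.28 ± 0.10 SE, did not pass the test (adjusted p = 0.518, limma). Without GRα vehicle replicate B the change was -0.46 with an adjusted p of 0.000723, and in a limma fit of only the 6 arrays compared the adjusted p was 0.148, which ends the call.

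**Figure D5:**
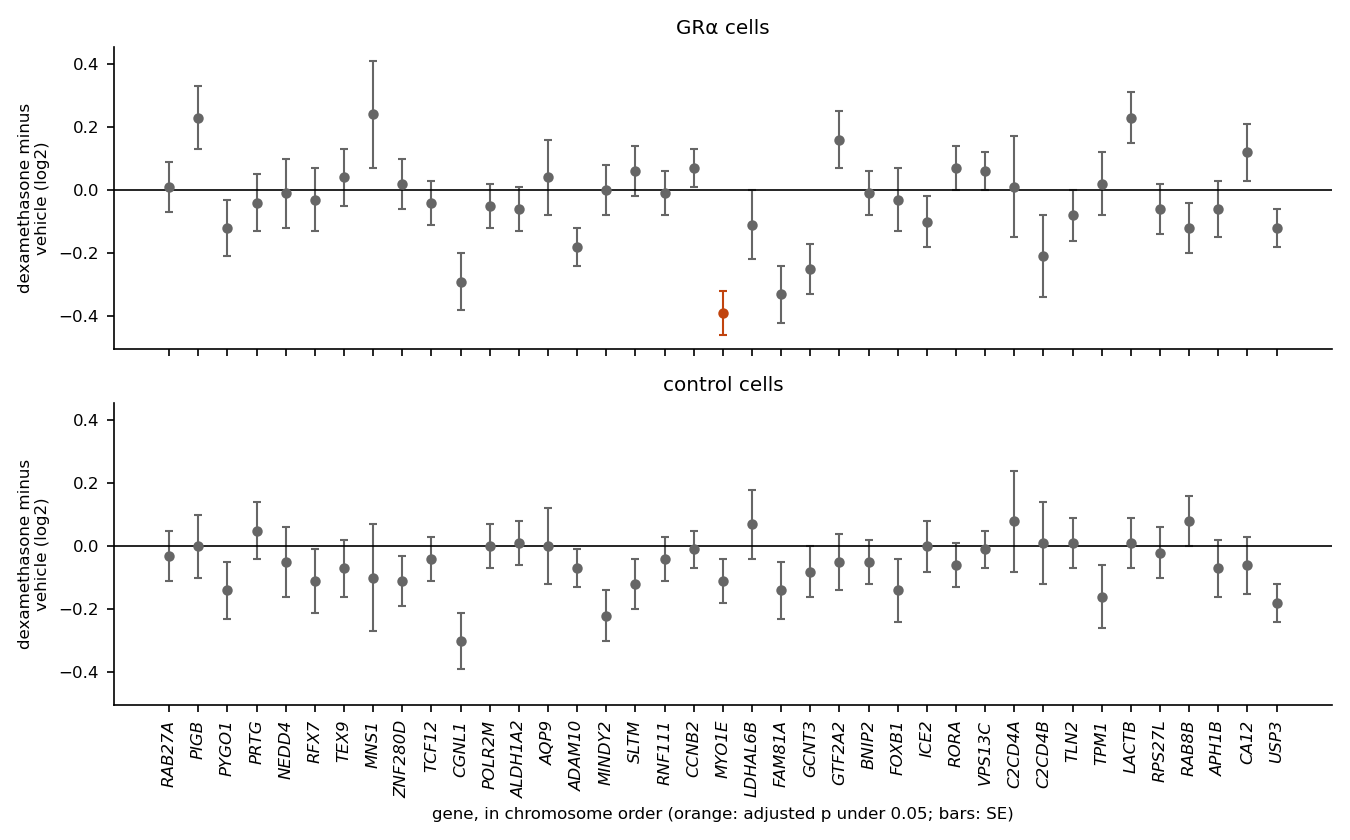
Change with dexamethasone (log2, bars are SE from limma) for the 39 members in GRα cells (upper panel) and control cells (lower panel), in RefSeq order, with called genes in orange. Only MYO1E at -0.39 in GRα cells was called, and CGNL1 has a similar value in both lines, -0.29 and -0.30.

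In control cells dexamethasone called none of the 39 members, against 0.261% of all genes, and 3 had an unadjusted p under 0.05 (7.69% against 4.91%, limma). CGNL1 had nearly equal changes in both lines, -0.29 ± 0.09 SE in GRα cells (adjusted p = 0.133, limma) and -0.30 ± 0.09 SE in control cells (adjusted p = 0.448, limma), and neither passed the test. With array weights in the fit CGNL1 was called in both lines, and without GRα vehicle replicate B it was called in GRα cells. USP3, at -0.12 and -0.18, lay lower with dexamethasone on every array of both lines and passed in neither. In GRα cells 3 members lay wholly higher with dexamethasone than with vehicle (CCNB2, GTF2A2 and LACTB), where 6.67% of all genes did, and 5 wholly lower (ADAM10, MYO1E, FAM81A, GCNT3 and USP3), where 9.13% did. In control cells 0 lay wholly higher, against 5.04% of all genes, and 3 wholly lower (CGNL1, MINDY2 and USP3), against 7.70%.

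RU486 called none of the members in either line, nor any other gene, 0.0% in each. In GRα cells 8 members had an unadjusted p under 0.05, or 20.5% against 8.54% of all genes (limma), and in control cells 0 did, against 3.37%. The largest changes with RU486 in GRα cells were 0.32 in TEX9 and -0.33 in GCNT3, over 2 RU486 arrays, and the smallest adjusted p of a member was 0.472 (limma). Dexamethasone against RU486 called 0 members in GRα cells, where 0.896% of all genes were called and 5 members had an unadjusted p under 0.05 (12.8% against 8.85% of all genes, limma). In control cells it called 0, where 0.364% of all genes were called and 4 members had such a p (10.3% against 5.98%, limma). The line by dexamethasone difference called 0 members, against 0.0652% of all genes, with 1 member at an unadjusted p under 0.05 (2.56% against 7.39% of all genes, limma). The line by RU486 difference called 0, against 0.0% of all genes, with 4 members at an unadjusted p under 0.05 (10.3% against 4.05% of all genes, limma).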

How the data were processed

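RNA was read on whole-transcript human gene arrays. The authors deposited log2 values of 29153 probe sets for 17 of 18 arrays. The remaining array, replicate A of RU486 in GRα cells, has an empty column and failed quality control per the labels. RMA (background correction, quantile normalization and probe summary) and limma are named per the submitters' processing notes, with no versions or build. Quantile normalization hides a shift common to most RNAs. Array medians lay between 6.28 and 6.35. The number of arrays limits the precision.

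Names came from the platform annotation, brought up to date through Entrez numbers in a RefSeq table (19429 of 19460 with 1 symbol matched). Probe sets with several symbols (1754) or none (7939) were left out. The brightest probe set stood for each of 769 genes with several, leaving 18417 genes. One limma fit (3.58.1, R 4.3.3) held a mean per group over all 17 arrays (residual degrees of freedom 11, prior 5.89). Testing was two-sided, with Benjamini-Hochberg adjustment over all genes, called under 0.05, and the fit was tested on simulated data.

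The members, lists and most tests were chosen with earlier results of these data known. Named genes are all members, measured genes between them, the 10 nearest on each side, called members, paralogs with a line difference of at least 1 log2, and NR3C1, ZBTB16 and PER1 as checks. Others named were chosen after their values were seen. PER1 rose 2.53-fold with dexamethasone in GRα cells and 1.93-fold in control cells. Alternatives were other normalizations, a filter on dim genes, eBayes options, array weights, gene units, fewer arrays, the replicate letter as a block, a stricter threshold and leaving out each array. Windows of 5 and 15 genes, steps over all genes and medians of bright members were added after seeing the data.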

Additional observations from a re-analysis of the deposited data

Results flagged for a closer look

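The probe set shared by CCPG1, an autophagy receptor of the endoplasmic reticulum, and the read-through gene DNAAF4-CCPG1 was outside the gene comparisons. It lies beside PIGB and RAB27A. Its level was 6.54 ± 0.13 on the 9 control arrays (SD, range 6.35 to 6.74) and 7.49 ± 0.16 on the 8 GRα arrays (SD, range 7.22 to 7.74), a difference of 0.94 log2 with no overlap of arrays. Which of the 2 transcripts carries the signal cannot be told apart.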

How the results depend on the processing

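Of 529 recomputed values 469 were labelled the same. For a count this meant equal or close in ratio to the reported count. For a median or step it meant within the spread between arrays, and for MYO1E still called. While 0 values reversed direction, most of the values are counts, which cannot reverse. The number of members called with dexamethasone in GRα cells was 2 with array weights (CGNL1 and MYO1E), 0 with only the groups compared fitted, and 1 to 2 when each array was left out. With array weights 1 member (CGNL1) was called with dexamethasone in control cells and 3 (CGNL1, MYO1E and USP3) for dexamethasone against RU486 there. MYO1E was called in 17 of 17 fits that left out 1 array (-0.46 to -0.35), and its adjusted p over all alternatives ran from 0.000723 to 0.148 (limma). The median line difference before TEX9 was 0.89 with the dimmest genes left out and 0.94 with bright members only. After VPS13C it was 0.68 and 0.71. Leaving out each array gave 0.74 to 0.80 before TEX9, 0.96 to 0.99 from TEX9 to VPS13C and 0.55 to 0.58 after VPS13C. A minimum difference of 0.5 log2 in place of no overlap gave 27 members in place of 28, without CA12. The largest step up was 0.80 with 15 bright genes a side and 1.44 with 5, and over all genes 0.70 with 10 (UNC13C to RSL24D1), 0.76 with 15 (ONECUT1 to WDR72) and 1.46 with 5 (TLE3 to UACA). The largest step down was -0.67 with 15 bright genes and -1.75 with 5, and over all genes -0.85 with 10 (BNIP2 to FOXB1), -0.67 with 15 and -1.85 with 5. All genes called with dexamethasone ranged from 77 to 601 in GRα cells (372 as reported) and from 16 to 148 in control cells (48), and with dexamethasone against RU486 from 54 to 259 (165) in GRα and from 29 to 214 (67) in control cells. The line by dexamethasone difference ranged from 5 to 22 (12). Apart from the settings named, the cause was not tested.

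Taken over all pairs, arrays of the same replicate letter did not deviate together (40 pairs, correlations from -0.254 to 0.324, median -0.014). Within the control line most same-letter pairs correlated weakly and positively, the highest being replicate A with vehicle and with dexamethasone (0.324). With the letter as a replicate block, 1 member was called with dexamethasone in GRα cells, MYO1E at -0.39, and the other treatment comparisons called 0 members. Signal near the low end of the array limits what the 20 dim members can show.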
